A study of Mus musculus with 6 samples.

Results

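Transcripts of the Notch pathway were measured in ipsilateral and contralateral retinal ganglion cells (RGCs), the neurons that carry visual information from the retina to the same or the opposite side of the brain. The genes were 3 receptors (Notch1, Notch2 and Notch3), 3 ligands (Dll1, Dll3 and Jag1), 3 target genes (Hes1, Hes5 and Hey1) and Hes6, and they were taken up as every probe set whose annotation names exactly 1 of these 10 symbols. This gave 17 of 45037 probe sets that are not array controls, and 10 of the 18193 genes that the array names singly. All 17 passed the filter on low values, a mean of at least 4.74 on the log2 scale, which 36029 probe sets passed.

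Embryos were C57BL/6J mice of E16.5 (embryonic day 16 in the sample records). A rhodamine dextran dye was placed on the cut optic tract, the heads were kept for 2 h, and dye-filled living cells were then sorted by FACS from the pooled ipsilateral or the pooled contralateral retinas of 2 litters. There were 3 ipsilateral and 3 contralateral samples, 1 of each from each of 3 rounds, and the study had selected these rounds for high Zic2 in ipsilateral RGCs. Sorting gave fewer ipsilateral than contralateral cells, and within a round equal amounts of RNA were amplified. Amplified cDNA was hybridized to Affymetrix mouse genome arrays, and the authors deposited 1 log2 intensity for each probe set and array, made with the RMA method. A sample is bulk RNA of sorted cells, in which fewer cells of a type and less RNA per cell cannot be told apart.

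Notch receptors are cut when a ligand on a neighboring cell binds them, and the freed part enters the nucleus and joins the DNA-binding protein Rbpj to switch on target genes. In the developing retina this pathway keeps progenitors dividing, while cells that leave the cycle as young neurons make ligands. Hes1, Hes5 and Hey1 encode basic helix-loop-helix repressors that block the genes of neuronal differentiation. Hes6 belongs to the same family but works against Hes1 and is made in cells that are becoming neurons.

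Rbpj binds DNA at a core of the letters TGGGAA. The 250 bases before the start of Hes5, the target gene with the largest difference described below, and of Notch1 and Notch2, the receptors with the largest, are shown because these 3 genes carried every 2-fold difference among the members. The letters TGGGAA, or TTCCCA for the opposite strand, are in capitals. The sequences are from RefSeq, in build GRCm38.p6, at chr4:154960673-154960922 on the plus strand (Hes5), chr2:26503823-26504072 on the minus strand (Notch1) and chr3:98013288-98013537 on the plus strand (Notch2).
Hes5: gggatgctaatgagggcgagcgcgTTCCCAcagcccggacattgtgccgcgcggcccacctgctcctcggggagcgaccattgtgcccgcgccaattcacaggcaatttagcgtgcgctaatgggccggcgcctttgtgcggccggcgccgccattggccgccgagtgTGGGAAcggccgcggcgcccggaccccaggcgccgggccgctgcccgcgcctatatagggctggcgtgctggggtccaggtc
Notch1: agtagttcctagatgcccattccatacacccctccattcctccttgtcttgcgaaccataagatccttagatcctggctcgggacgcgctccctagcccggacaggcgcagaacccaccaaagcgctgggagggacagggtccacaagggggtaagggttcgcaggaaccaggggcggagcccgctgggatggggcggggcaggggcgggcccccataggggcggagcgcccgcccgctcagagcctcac
Notch2: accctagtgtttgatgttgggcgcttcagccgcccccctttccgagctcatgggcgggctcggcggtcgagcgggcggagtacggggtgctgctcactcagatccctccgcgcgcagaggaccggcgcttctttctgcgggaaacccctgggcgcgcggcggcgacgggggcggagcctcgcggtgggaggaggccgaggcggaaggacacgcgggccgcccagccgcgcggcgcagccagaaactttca
The Hes5 window holds the letters at 2 places, beginning 226 and 82 bases before the start, and the Notch1 and Notch2 windows hold them at 0 places. In the table, 8 of the 10 genes had entries, with 10 windows in all, and the Hes5 window was the 1 that held a match, while 21.6% of 32851 windows of the same length in all genes held at least 1 and 2.77% held at least 2.

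Across the members, ipsilateral RGCs had the higher mean level at 14 of 17 probe sets. No difference passed the test used here, although the study's own analysis called some of these probe sets, as given below. The largest, on the log2 scale and as ipsilateral minus contralateral, were 2.77 at a Notch2 probe set, 1.51 at a Hes5 probe set, and 1.29 and 1.25 at the 2 Notch1 probe sets. Jag1 had a lower mean level in ipsilateral RGCs at each of its 3 probe sets, by 0.28 or less. The test was limma over all 36029 probe sets, and a probe set was called when its Benjamini–Hochberg adjusted p was under 0.05 and its change at least 2-fold. By limma 0 of 17 probe sets were called higher, where 0.244% of all probe sets were, and 0 were called lower, where 0% were. With the replicate block, a fit that compares the sides within rounds, the counts were again 0 and 0, where 0.208% and 0% were. Differences of 2-fold or more, with no test, were higher at 4 probe sets and lower at 0, where 2.32% and 0.33% of all probe sets were. At an unadjusted limma p under 0.05 with a 2-fold change, 4 were higher and 0 lower, where 2.05% and 0.239% of all probe sets were, and an unmoderated test gave 2 higher and 0 lower, where 1.24% and 0.086% were.

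The sign of the differences was shared by most members. Of the 17 probe sets, 11 were higher in the ipsilateral sample of all 3 rounds, where 16.7% of all probe sets were, and 0 were lower in all 3, where 19.7% were. At 5 probe sets, those of Notch1 (1418634_at), Notch2 (1455556_at), Dll1, Dll3 and Hes5 (1456010_x_at), the lowest ipsilateral value lay above the highest contralateral value, as it did at 3.26% of all probe sets, and the reverse held at 0, where it did at 2.03%. The median log2 difference was 0.34 over the 17 probe sets, and −0.02 over all probe sets tested. With 1 probe set per gene, the one with the highest mean, the median over the 10 genes was 0.62, with 0.38, 0.43 and 0.76 in rounds 1 to 3, and −0.01 over all 15346 genes. Leaving out ipsilateral replicate 3 gave 0.37, and leaving out contralateral replicate 1 gave 0.41. All fits with 1 array left out had no block, so they also broke the pair of a round.

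**Figure D1:**
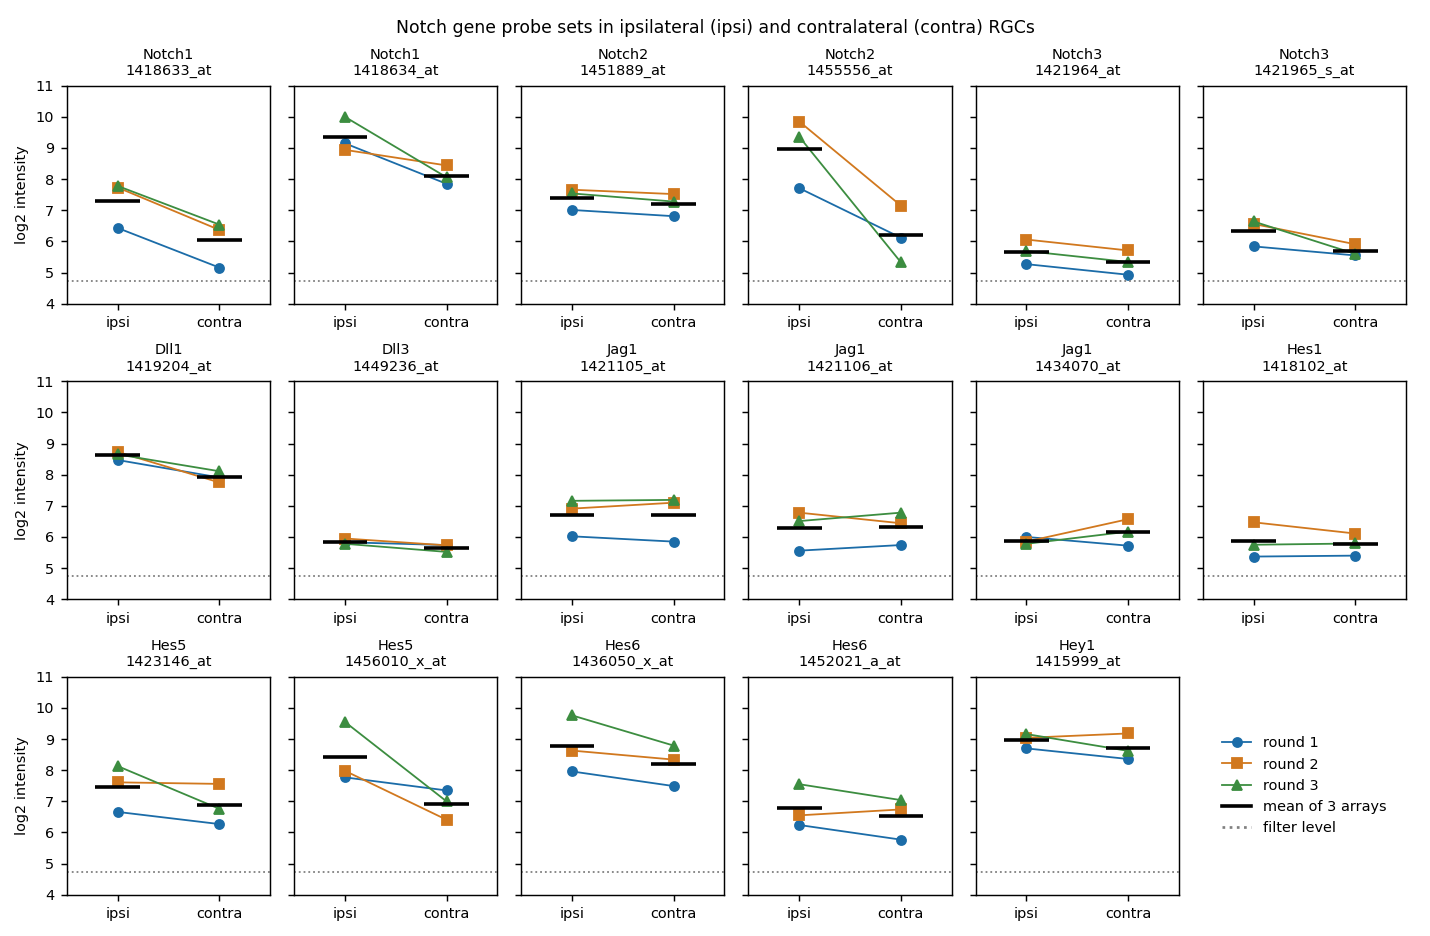
Log2 intensity (vertical axis) of each of the 17 probe sets on the ipsilateral (ipsi) and the contralateral (contra) side. A symbol stands for 1 array, a line links both sides of 1 round, black bars are means of 3 arrays and the dotted line is the filter level of 4.74. The lines of rounds 2 and 3 at Notch2 1455556_at are the steepest drawn (2.69 and 4.02), while at the second Notch2 probe set no round differs by more than 0.26.

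Notch1, the main Notch receptor of retinal progenitors, was higher in ipsilateral RGCs at both of its probe sets. At 1418634_at the log2 levels were 9.15, 8.94 and 10 in ipsilateral RGCs of rounds 1 to 3, against 7.85, 8.44 and 8.06 in contralateral RGCs. All 3 ipsilateral arrays lay above all 3 contralateral arrays. The means were 9.36 ± 0.56 and 8.11 ± 0.30 (SD, n = 3 each), a 2.38-fold difference that did not pass (log2 difference 1.25, SE 0.42, limma adjusted p = 0.867). At 1418633_at the log2 levels were 6.43, 7.73 and 7.78 in ipsilateral RGCs and 5.16, 6.37 and 6.54 in contralateral RGCs. Round 1 was low on both sides, so that the sides overlapped, but the differences within rounds were nearly equal, at 1.27, 1.36 and 1.23. The difference of the means, 1.29, was 0.85 when contralateral replicate 1 was left out. In that fit the low ipsilateral array of round 1 had no partner. Its limma adjusted p was 1 without and 0.0602 with the replicate block, and 0.0602 was the lowest value of any member in that fit.

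Notch2, a second receptor of the family, gave different values at its 2 probe sets. At 1455556_at the log2 levels were 7.71, 9.85 and 9.36 in ipsilateral RGCs of rounds 1 to 3, against 6.12, 7.15 and 5.33 in contralateral RGCs. The ipsilateral arrays all lay above the contralateral ones, and the difference within a round was 1.59, 2.69 and 4.02. The means of 8.97 ± 1.12 and 6.20 ± 0.91 (SD, n = 3 each) differed by 2.77 on the log2 scale, or 6.82-fold, with a 95% interval from 1.51 to 4.02. Only 0.155% of all probe sets had a larger positive difference. It did not pass (limma adjusted p = 0.102, and 0.113 when rounds were blocked), but it passed without ipsilateral replicate 1 (3.40, limma adjusted p = 7.69e-04) and without contralateral replicate 2 (3.24, limma adjusted p = 0.00561). With any other array left out it did not pass (2.33 to 2.73, limma adjusted p from 0.0602 to 0.331). At 1451889_at the log2 levels were 7.01, 7.66 and 7.54 in ipsilateral RGCs and 6.81, 7.52 and 7.28 in contralateral RGCs. Here each ipsilateral sample was higher than its contralateral counterpart by 0.14 to 0.26, and the log2 means differed by 0.20 (SE 0.41, limma adjusted p = 1). Both Notch1 probe sets and Notch2 1455556_at are also on the study's own list of differing genes. There they passed at 2-fold and an adjusted p under 0.05, which they did not here, and the study names no test. The study's fold values also differed from those here. That list was drawn up from these arrays, and their direction is therefore no independent evidence.

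Notch3, a receptor best known from the smooth muscle and pericytes of blood vessels and also made by neural progenitors, had small differences at both of its probe sets. At 1421965_s_at the log2 levels were 5.84, 6.56 and 6.64 in ipsilateral RGCs, against 5.55, 5.91 and 5.60 in contralateral RGCs. The ranges overlapped, since the ipsilateral sample of round 1 lay below the contralateral sample of round 2. The log2 means differed by 0.66 (SE 0.40, limma adjusted p = 1). At 1421964_at they differed by 0.34, and the 3 rounds gave 0.34, 0.35 and 0.35. With the replicate block the 95% intervals ran from 0.18 to 1.14 at 1421965_s_at and from 0.00 to 0.69 at 1421964_at. The limma adjusted p in that fit was 0.248 and 0.356.

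**Figure D2:**
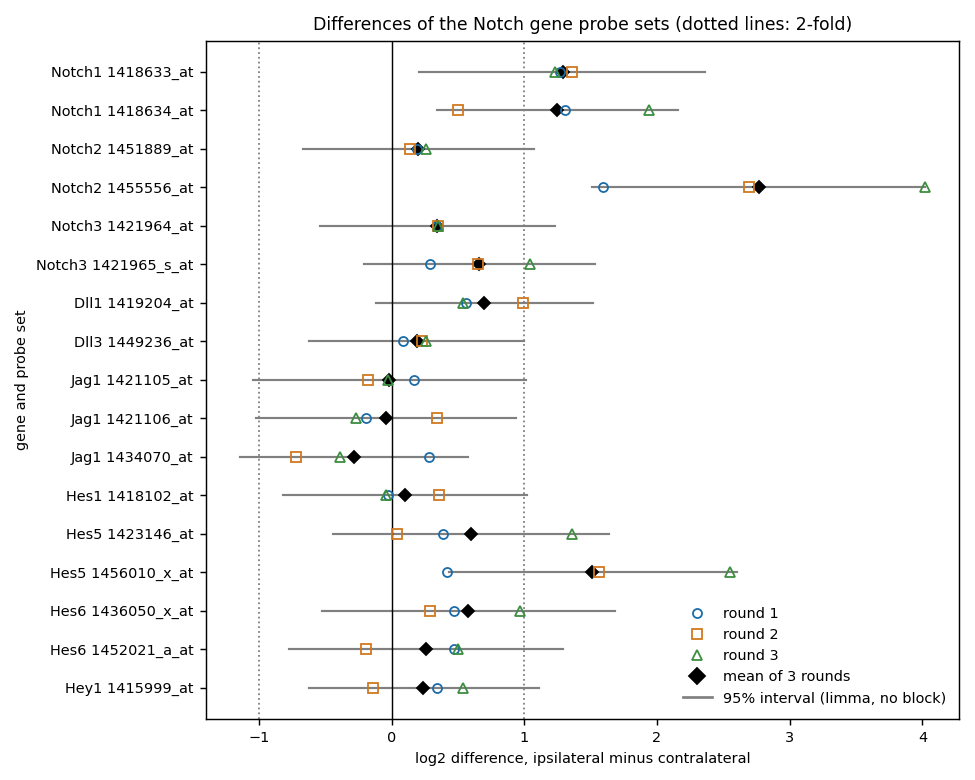
Log2 difference, ipsilateral minus contralateral (horizontal axis), of the 17 probe sets (vertical axis). Open symbols are the 3 rounds, black diamonds their means, grey lines the 95% interval of limma without the block, and dotted lines mark a 2-fold difference. Intervals of 4 probe sets, of Notch1, Notch2 and Hes5, lie above 0. With the replicate block, which is not drawn, they also do so at Dll1, Notch3 1421965_s_at and Hes6 1436050_x_at. The blocked intervals of Dll3, Jag1, Hes1 and Hey1 include 0, as do those of Notch2 1451889_at, Hes5 1423146_at and Hes6 1452021_a_at. That of Notch3 1421964_at begins at 0.00.

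The ligands had differences under 2-fold at all 5 probe sets. Dll1, the Delta ligand of newly formed neurons, had log2 levels of 8.47, 8.73 and 8.65 in ipsilateral RGCs, against 7.91, 7.75 and 8.11 in contralateral RGCs. The sides did not overlap, and the arrays of each side lay close together, with means of 8.62 ± 0.14 and 7.92 ± 0.18 (SD, n = 3 each). The log2 difference of 0.70 was under 2-fold (SE 0.38, limma adjusted p = 1). Dll3, a Delta relative that stays inside the cell and dampens Notch signaling in the same cell, had log2 levels of 5.83, 5.95 and 5.78 in ipsilateral RGCs and 5.74, 5.73 and 5.52 in contralateral RGCs. These sides did not overlap either, although the log2 means differed by 0.19 (SE 0.38, limma adjusted p = 1). For Dll3 the blocked interval ran from −0.16 to 0.54 (limma adjusted p = 0.613).

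Jag1, a ligand of the Jagged class, was close to equal on both sides. At its brightest probe set, 1421105_at, the log2 levels were 6.02, 6.91 and 7.16 in ipsilateral RGCs, against 5.85, 7.10 and 7.19 in contralateral RGCs. The rounds lay farther apart than the sides, and the mean log2 difference was −0.02 with a 95% interval from −1.04 to 1.01. The other 2 probe sets differed by −0.04 and −0.28, with intervals from −1.02 to 0.94 and from −1.14 to 0.58. A 2-fold difference in at least 1 direction lies within each of these intervals, which leave the rounds unpaired. With the replicate block they ran from −0.39 to 0.36 at 1421105_at, from −0.49 to 0.41 at 1421106_at and from −0.84 to 0.29 at 1434070_at. A 2-fold difference lies outside each interval of that fit. At each of the 3 probe sets, 1 round was higher and 2 rounds were lower in ipsilateral RGCs.

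Among the target genes Hes5, the repressor that depends most directly on Notch in neural progenitors, had the largest difference. At 1456010_x_at the log2 levels were 7.77, 7.98 and 9.55 in ipsilateral RGCs, against 7.35, 6.41 and 7.0 in contralateral RGCs. The lowest ipsilateral array was above the highest contralateral array, but round 3 alone differed by 2.55 and round 1 by 0.42. The means were 8.43 ± 0.98 and 6.92 ± 0.47 (SD, n = 3 each), which is 2.85-fold (log2 difference 1.51, SE 0.50, limma adjusted p = 0.792). Without ipsilateral replicate 3 the log2 difference was 0.95. At the second Hes5 probe set, 1423146_at, the log2 levels were 6.66, 7.61 and 8.13 in ipsilateral RGCs, against 6.27, 7.56 and 6.76 in contralateral RGCs. The sides overlapped there, and the log2 means differed by 0.60 (SE 0.48, limma adjusted p = 1). Leaving out ipsilateral replicate 3 or contralateral replicate 1 gave 0.27 or 0.30, and leaving out ipsilateral replicate 1 or contralateral replicate 2 gave 1.0 or 0.95. In the naming of these arrays the ending _x_at, which also marks the brighter Hes6 probe set, stands for probes that may bind other transcripts, and _s_at, as at Notch3, for probes shared by several transcripts.

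Hes1, a repressor of progenitors that is also switched on by other signals, had log2 levels of 5.37, 6.47 and 5.75 in ipsilateral RGCs, against 5.40, 6.11 and 5.79 in contralateral RGCs. The difference of 0.36 in round 2 was the only one above 0.1, and the mean log2 difference was 0.10 with a 95% interval from −0.82 to 1.02 (limma adjusted p = 1). Hey1, a related repressor found in progenitors and in vessels, had log2 levels of 8.70, 9.04 and 9.16 in ipsilateral RGCs and 8.36, 9.18 and 8.62 in contralateral RGCs. The sides overlapped, and the sign was not the same in all rounds, with a mean log2 difference of 0.24 (SE 0.40, limma adjusted p = 1).

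Hes6, which opposes Hes1 in cells that become neurons, was higher in the ipsilateral sample of all rounds at 1 of 2 probe sets. At 1436050_x_at the log2 levels were 7.96, 8.63 and 9.76 in ipsilateral RGCs, against 7.49, 8.34 and 8.79 in contralateral RGCs. Rounds differed more than sides, and the log2 means differed by 0.58 (SE 0.51, limma adjusted p = 1). Leaving out ipsilateral replicate 3 or contralateral replicate 1 lowered this to 0.09 or 0.22, and leaving out ipsilateral replicate 1 raised it to 0.99. At 1452021_a_at they differed by 0.26, and round 2 went the other way, at −0.19. The difference at this probe set changed sign without contralateral replicate 1 (−0.11) and without ipsilateral replicate 3 (−0.12).

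Ordered by the difference at the brightest probe set, the members ran from Notch2 (2.77) through Hes5 (1.51), Notch1 (1.25), Dll1 (0.70), Notch3 (0.66), Hes6 (0.58), Hey1 (0.24), Dll3 (0.19) and Hes1 (0.10) to Jag1 (−0.02). The 95% intervals of neighbors in this order overlapped in every case, including Notch2 (1.51 to 4.02) and Hes5 (0.43 to 2.60). Levels of different probe sets were not set against each other, since the brightness of a probe set also depends on its probes.

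Probe sets of the same gene gave equal signs of the mean difference in 6 of 6 members with more than 1 probe set, and the 7433 genes of the array with at least 2 tested probe sets had opposite signs in 46.4%. The Notch1 probe sets differed from each other by 0.04 in their log2 difference, and 94.2% of these genes had a larger gap. The gap of Notch2 was 2.57, with 1.40, 2.56 and 3.76 in the 3 rounds, and 0.256% of genes had a larger one. The Hes5 gap was 0.91, and 6.55% of genes had a larger one, while those of Notch3, Jag1 and Hes6 lay between 0.26 and 0.32, near the median of 0.31. An exact sign-flip test over the 3 rounds gave a two-sided p of 0.25 for the Notch2 gap and for the Hes5 gap. That is the smallest p that 3 rounds allow. Any gap of 1 sign in all rounds gives it, so the test cannot weigh the size of a gap.

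The rest of the pathway was read from 47 other ligands, receptors, processing enzymes, modifiers, cofactors and targets, of which 42 passed the filter, 2 did not (Hes3 and Hey2) and 3 were not analysed. Of the 42, each at its brightest probe set, 0 were called higher and 0 lower by limma, where 0.358% and 0% of all genes were, and with the replicate block again 0 and 0, where 0.319% and 0% were. Beyond 2-fold, with no test, were 3 higher and 0 lower, where 2.75% and 0.222% of genes were. Limma without adjustment, at p under 0.05 and beyond 2-fold, gave 3 higher and 0 lower, where 2.47% and 0.156% of genes were, and the unmoderated test gave 2 and 0, where 1.62% and 0.0717% were. The list was evenly split, with 21 higher and 21 lower and a median log2 difference of −0.02. Higher in all 3 rounds were 10 genes, where 17.6% of all genes were, and 8 were lower in all 3, where 20.2% were. The sides did not overlap at 2 genes, Nrarp and Mfng, both higher in ipsilateral RGCs, where 3.84% of genes were higher without overlap and 1.98% lower.

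The 4 largest positive values were those of Nrarp, Lfng, Mfng and Numb. Nrarp, a Notch target that feeds back to limit the signal, had log2 levels of 7.19, 8.20 and 8.80 in ipsilateral RGCs and 6.48, 6.48 and 7.02 in contralateral RGCs at its brightest probe set. The sides did not overlap there or at its second probe set, and the mean log2 differences were 1.41 and 1.70 (limma adjusted p = 0.754 and 0.256). Lfng and Mfng, glycosyltransferases of the Fringe family that change which ligands a Notch receptor answers to, differed by 1.22 and 1.05, each higher in all 3 rounds (both limma adjusted p = 1), and a second Lfng probe set differed by 0.48. The third Fringe gene, Rfng, differed by −0.12, and Pofut1 and Poglut1, which add sugars to the receptor, by −0.17 and 0.37, and these 3 are named here after their values were seen. Numb, which holds Notch back in 1 daughter of a dividing cell, differed by 0.81, and its relative Numbl by −0.49. The brightest probe sets of Nrarp, Lfng and Mfng are on the study's own list of differing genes too, as higher in ipsilateral RGCs. They passed the study's thresholds but not the test used here. The study drew up that list from these arrays, so the direction of these genes is no independent evidence either.

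The largest negative values were smaller. Dtx1, a Deltex ubiquitin ligase that binds Notch, differed by −0.68, Aph1a, a subunit of the γ-secretase that cuts the receptor, by −0.62, and Maml2, a coactivator of the Rbpj complex, by −0.48, each with a limma adjusted p of 1. For Maml2 the value came from round 2 (−1.51), and the other rounds gave −0.04 and 0.09. Rbpj itself, named for its role after its value was seen, had log2 levels of 8.46, 8.73 and 8.95 in ipsilateral RGCs and 8.70, 8.68 and 8.76 in contralateral RGCs at its brightest probe set. Its mean log2 difference was 0.00, and its other probe sets gave 0.24 and −0.25.

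**Figure D3:**
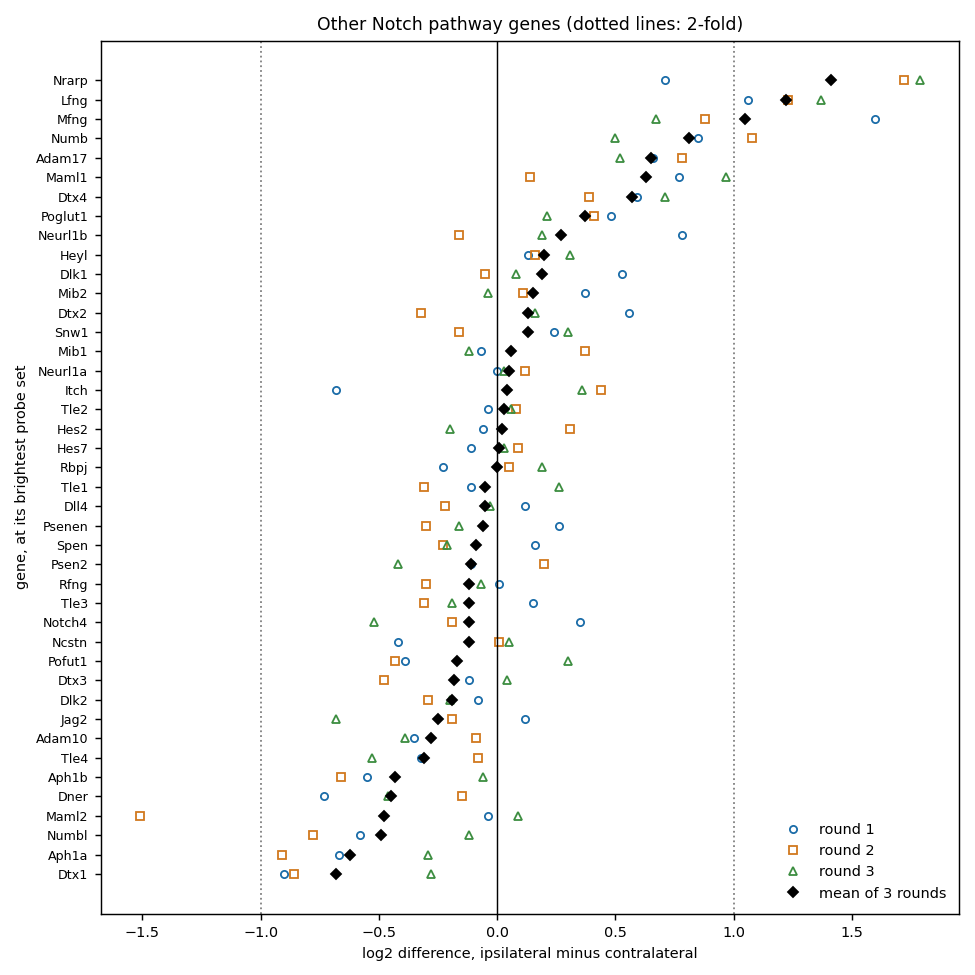
Log2 difference, ipsilateral minus contralateral (horizontal axis), of 42 other Notch pathway genes at the brightest probe set of each (vertical axis). Open symbols are the 3 rounds, black diamonds their means, and dotted lines mark a 2-fold difference. Nrarp, Lfng and Mfng lie beyond the 2-fold line, and Rbpj lies at 0.00.

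Marker lists of other cells were read beside these values. Genes of retinal progenitors, the cells in which Notch1 and Hes5 are known to be made, were higher in ipsilateral RGCs at 15 of 15 measured genes, and their median differences were 1.43 in round 1, 1.65 in round 2 and 2.55 in round 3. Their summed intensity ranged from 17400 to 31500 in ipsilateral and from 10700 to 13600 in contralateral samples. Of them Sox2, Sox9, Sfrp2 and Fabp7 rose by limma (log2 differences of 2.68, 2.53, 2.29 and 2.75, adjusted p = 0.0475, 0.0275, 0.0321 and 0.0301), 4 of 15 where 0.358% of all genes were called, and with the replicate block 0 of these 4 passed (adjusted p from 0.0629 to 0.156). Higher in all 3 rounds were 13 of the 15 progenitor genes, where 17.6% of all genes were. The brightest, Pax6, differed by 0.03 (−0.04, −0.01 and 0.13 in rounds 1 to 3), Six3 by 0.02 and Vim by 0.82. G2 and M phase genes had medians of 0.99, 1.12 and 2.51, with Cenpf (2.92, limma adjusted p = 0.0267, or 0.0923 with the block) and Spc25 (3.12, limma adjusted p = 0.0124, or 0.0741 with the block) called, 2 of 15 genes. Neurogenic precursor genes, the class of cell in which Dll1, Dll3 and Hes6 are known, had medians of 0.61, 0.54 and 1.24, with 8 genes higher and 2 lower. Their summed intensities ranged from 14500 to 18400 in ipsilateral and from 15100 to 17900 in contralateral samples. Limma called 1 of 10, Neurod4 (2.59, adjusted p = 0.0246), which also passed with the block (limma adjusted p = 0.0455). The 2 that were lower, in all 3 rounds, were Dcx (−0.36), of migrating young neurons, and Sox11 (−0.19), both with a limma adjusted p of 1. Dcx and Sox11 are also the brightest of the list (mean log2 levels of 12.53 and 12.90, with Atoh7 next at 9.28). They make up most of its summed intensities, in which the other genes count little. In each of these lists the median was largest in round 3, as were the differences at Hes5 1456010_x_at, Hes6 1436050_x_at, Notch2 1455556_at and Notch1 1418634_at, while those at Dll1 and Notch1 1418633_at were largest in round 2 (0.99 and 1.36). The part of such cells in the Notch values was not tested.

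Of 15 microglia and macrophage genes, 13 passed the filter, and their summed intensity ranged from 7940 to 12400 in ipsilateral and from 373 to 961 in contralateral samples. The contralateral mean was under the filter level at 5 of the 13 (Csf1r, C1qb, C1qc, Aif1 and Ptprc), which thus passed through the ipsilateral side, so that a count or median over those that passed is a description only. Itgam and Mrc1, which did not pass, differed by 0.04 and 0.21. Limma called 8 higher, where 0.358% of all genes were, and 7 with the replicate block, where 0.319% were. These calls include Csf1r and C1qb, which are among the 5, and are part of that description. The defining markers Csf1r and C1qb differed by 5.68 and 5.88. The ratio of the summed intensities was 25.2, 12.9 and 12 in rounds 1 to 3. Some contralateral values in it were low, as those of Csf1r were 3.70, 5.36 and 5.08 in these rounds. The 20th percentile of the contralateral arrays was 4.039, 4.956 and 4.991. The order of the rounds in this ratio was therefore not set against that at Notch2 1455556_at. The part of these cells in the Notch2 value was not tested. Of 16 endothelial and pericyte genes, 9 passed the filter, with a median log2 difference of 0.00 and summed intensities from 598 to 1240 in ipsilateral and from 518 to 860 in contralateral samples. Among those that did not pass were the endothelial markers Cdh5, Tek, Tie1 and Emcn and the pericyte markers Kcnj8, Abcc9 and Anpep, and Kdr, the brightest that passed and a receptor also made by retinal progenitors, differed by 1.02 (limma adjusted p = 1). Lists of astrocytes and Müller glia, of ciliary margin and pigment epithelium and of lens had medians of 0.14, −0.07 and −0.09. Pan-RGC genes were lower in ipsilateral RGCs at 16 of 16 measured genes, with a median of −0.42 and 0 called by limma. The list holds Pou4f1 (Brn3a, −0.45), which is known as a marker of contralateral RGCs. Nefl, a neurofilament gene, had log2 levels of 13.15 ± 0.16 in ipsilateral and 13.32 ± 0.09 in contralateral RGCs (SD, n = 3 each).

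**Figure D4:**
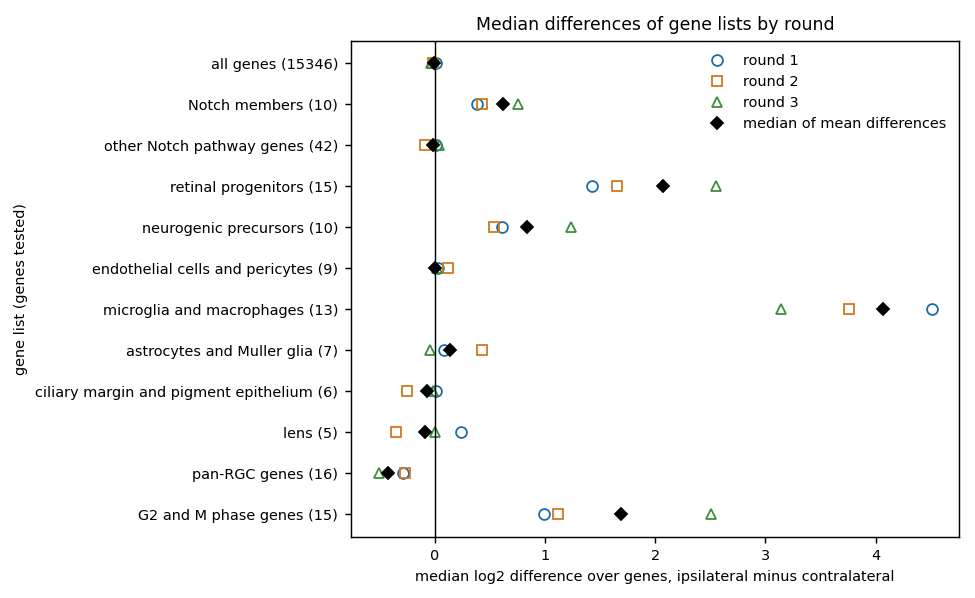
Median log2 difference, ipsilateral minus contralateral (horizontal axis), over the genes of each list (vertical axis, with the number of genes tested). Open symbols are rounds, and black diamonds are medians of the mean differences. The Notch members (0.62) lie between the other Notch pathway genes (−0.02) and the neurogenic precursor genes (0.84), well below retinal progenitors (2.07).

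The genes whose 6 values were most like those of Notch1 and Hes5 were found by the root mean square distance between values centered on each gene's mean, over 15345 other genes at their brightest probe sets. For Notch1 these were H2az2, a histone variant gene (0.10 log2 units), Prc1, which acts in cytokinesis (0.11), and Dsn1, of the kinetochore (0.11), where the median distance of all genes was 0.80. For Hes5 they were Zfp367, a zinc finger gene (0.15), Arhgap11a, a gene of dividing cells (0.23), and Ccnd1, which encodes the main D cyclin of retinal progenitors (0.26), where the median distance was 1.08. Ccnd1, also on the progenitor list above, differed by 0.86, 1.21 and 2.61 in rounds 1 to 3, beside 0.42, 1.56 and 2.55 for Hes5. The 6 values include the difference between the sides. The genes found therefore share that difference and its pattern over rounds by the way they were chosen.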

How the data were processed

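Total RNA of sorted RGCs was amplified as cDNA and hybridized to Affymetrix Mouse Genome arrays. The authors deposited log2 intensities, 1 for each probe set and array, computed with RMA in Affymetrix Expression Console 1.1. The 6 arrays do not share 1 distribution (array medians lay between 5.797 and 6.705, and the sides of a round within 0.1). The genome build is not given in the sources used here. After 64 control probe sets were left out, the 20th percentile of the means (4.74) was the filter, and limma 3.58.1 (lmFit, eBayes; R 4.3.3) set ipsilateral against contralateral arrays, with no block, at 2-fold and a Benjamini–Hochberg adjusted p under 0.05 over 36029 probe sets. The study names those thresholds but no test. The script was tested on simulated data. An exact permutation test of 3 against 3 cannot go below p = 0.10. The number of arrays limits the precision.

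Samples of a round are paired: the methods state that both sides of a round were treated and prepared alike, and deviations of same-numbered arrays from their group means had correlations of 0.511, 0.541 and 0.612, against −0.353 to −0.207 for other pairs. Deviations from a mean of 3 arrays cancel out, so positive values for same-numbered arrays bring negative ones for other pairs. The negative range is therefore no separate evidence of pairing. A replicate block was 1 of the alternatives, and lowered the median standard error to 0.17, against 0.44 with no block. Genes were named by the platform annotation, in which 34945 probe sets name 1 gene, 932 name several and 9160 name none, and all 10 members were found in the RefSeq table. The members and lists were chosen with earlier results of these data known. Named are all members, the up to 4 other pathway genes with the largest difference in each direction, the brightest or called markers, and the 3 genes nearest to Notch1 and Hes5. Other alternatives were further filters, normalizations, estimators, thresholds and probe sets, and leaving out each array.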

Additional observations from a re-analysis of the deposited data

How the results depend on the processing

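No member was called lower under any alternative. The count of 0 member probe sets called higher became 1 with a filter at the 50th percentile, with arrays centred on their medians and with an intensity trend and robust estimation, each time Notch2 1455556_at (limma adjusted p = 0.0218, 0.0431 and 0.00709). It became 5 with array weights, which put 5.67 and 6.12 on the arrays of round 3 and whose estimation stopped before it converged, and 4 at an unadjusted p. With 1 array left out it lay between 0 and 1. It stayed 0 with the replicate block, no filter, quantile normalization, the unmoderated test, a 1.5-fold threshold and no fold threshold. The count of other pathway genes called higher became 2 with array weights and 3 at an unadjusted p, and stayed 0 under the other alternatives. The median difference of the 10 genes, 0.62, lay between 0.37 (without ipsilateral replicate 3) and 0.84 (without ipsilateral replicate 1) with 1 array left out, and was 0.25 with the dimmest probe set of each gene. Hes1 changed sign with array weights (−0.01). With 1 array left out, signs were not kept by Hes1 (−0.21 to 0.35), Hes6 1452021_a_at (−0.12 to 0.53), Jag1 1421105_at (−0.44 to 0.32) and Jag1 1421106_at (−0.33 to 0.32). The differences at Notch2 1451889_at (0.00 to 0.39), Notch3 1421964_at (0.15 to 0.54), Hey1 (0.07 to 0.47), Dll3 (0.12 to 0.23) and Jag1 1434070_at (−0.50 to −0.07) moved by over 1.5 times with 1 array left out. The replicate block changed no call of a member or pathway gene. The fits with 1 array left out had no block, and each left 1 array without its pair. Differences between rounds therefore entered their values. Within rounds the differences were 0.34, 0.35 and 0.35 at Notch3 1421964_at, and 0.19, 0.14 and 0.26 at Notch2 1451889_at. What else lay behind these changes was not tested.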
